A study of Mus musculus with 20 samples.

Results

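The transcription factor genes described here are Tox, Tox2, Tcf7, Eomes, Tbx21, Nr4a1, Nr4a2, Nr4a3, Batf and Prdm1, a named set of 10 genes chosen for their known roles in CD8 T cell exhaustion and effector differentiation. The set was chosen with earlier results of these data known. All 10 were found among the 55260 genes to which the deposited transcript rows were summed. The data are RNA-seq estimated counts from cells sorted out of MC38-OVA tumours, an ovalbumin-expressing mouse colon carcinoma line grown in C57BL/6 mice. From each of 5 pools of mice, CD8 T cells and 3 CD11c- or CD11b-positive populations were sorted, which gave 20 libraries. These 3 (CD11c+CD11b-, CD11c+CD11b+ and CD11c-CD11b+) are called myeloid below for their sort markers, not for the cells they held. Tumours received 8 Gy of focal radiotherapy (RT) on day 12, or sham irradiation in the pool called untreated, and were harvested on day 17, 5 days later. The 5 treatments were untreated, RT alone, RT with anti-SIRPa antibody (400 ug on 3 days), RT with anti-PD-1 antibody (250 ug on 2 days), and RT with both antibodies. SIRPa is an inhibitory receptor of phagocytes and PD-1 an inhibitory receptor of T cells. Each library came from 1 pool of 10 mice, and each combination of population and treatment had 1 library. The spread given below is therefore between treatment pools, and no antibody was given without irradiation.

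T cells that meet antigen continuously take on a state called exhaustion, in which inhibitory receptors stay on and cytokine output drops. TOX is a DNA-binding protein required for that state. TCF1, the product of Tcf7, marks the self-renewing progenitors of exhausted and memory cells, while the T-box factors T-bet (Tbx21) and Eomes direct killing and interferon programmes in CD8 T and natural killer (NK) cells. The NR4A orphan nuclear receptors are induced within hours of T cell receptor signalling and also by many stimuli in macrophages and dendritic cells. BATF pairs with JUN and IRF proteins, and Blimp-1, the product of Prdm1, is a repressor that accompanies terminal differentiation in T cells and plasma cells.

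Before the members are described, 2 features of the libraries bear on them. The library labelled untreated CD8 T stood apart from the other CD8 T libraries. All 12 CD8 T cell markers of a fixed list were there at 4.38 to 7.42% of their mean in the 4 irradiated CD8 T libraries, and the 12 summed to 224 CPM (counts scaled to library size), against 3225 to 4883 CPM in those 4. All 10 macrophage markers were at 350 to 1309% of that mean. The CD11c+CD11b- libraries, labelled dendritic cells, carried all 6 NK cell markers of a fixed list at summed levels of 774 to 1086 CPM, against 36.5 to 86.6 CPM in the other myeloid libraries and 25.8 to 68.1 CPM in CD8 T libraries. Their macrophage markers summed to only 478 to 1157 CPM. These markers summed to 1143 to 2590 CPM in irradiated CD8 T libraries and to at least 4154 CPM in the other myeloid libraries. Dendritic cell markers, given with Nr4a3 below, were present in CD11c+CD11b- as well. Cd3e, which encodes the epsilon chain of CD3, was there at 3.62 to 12.0 CPM, against 381 to 575 CPM in irradiated CD8 T libraries. The 12 CD8 T cell markers together were less low in CD11c+CD11b-. They summed there to 267 to 503 CPM, above the 224 CPM of the library labelled untreated CD8 T. That sum does not stand for every marker. In the untreated pool only Lck, Cd2, Cd247 and Ubash3a were higher in CD11c+CD11b- than in CD8 T, Lck at 170 against 26.6 CPM. The other markers of the list were lower there, Cd3e at 3.62 against 30.0 CPM and Cd8a at 3.43 against 48.2 CPM. Tests between CD8 T and myeloid populations are given with and without that library. In sorted bulk samples, more cells of a type and more RNA per cell cannot be told apart.

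**Figure D1:**
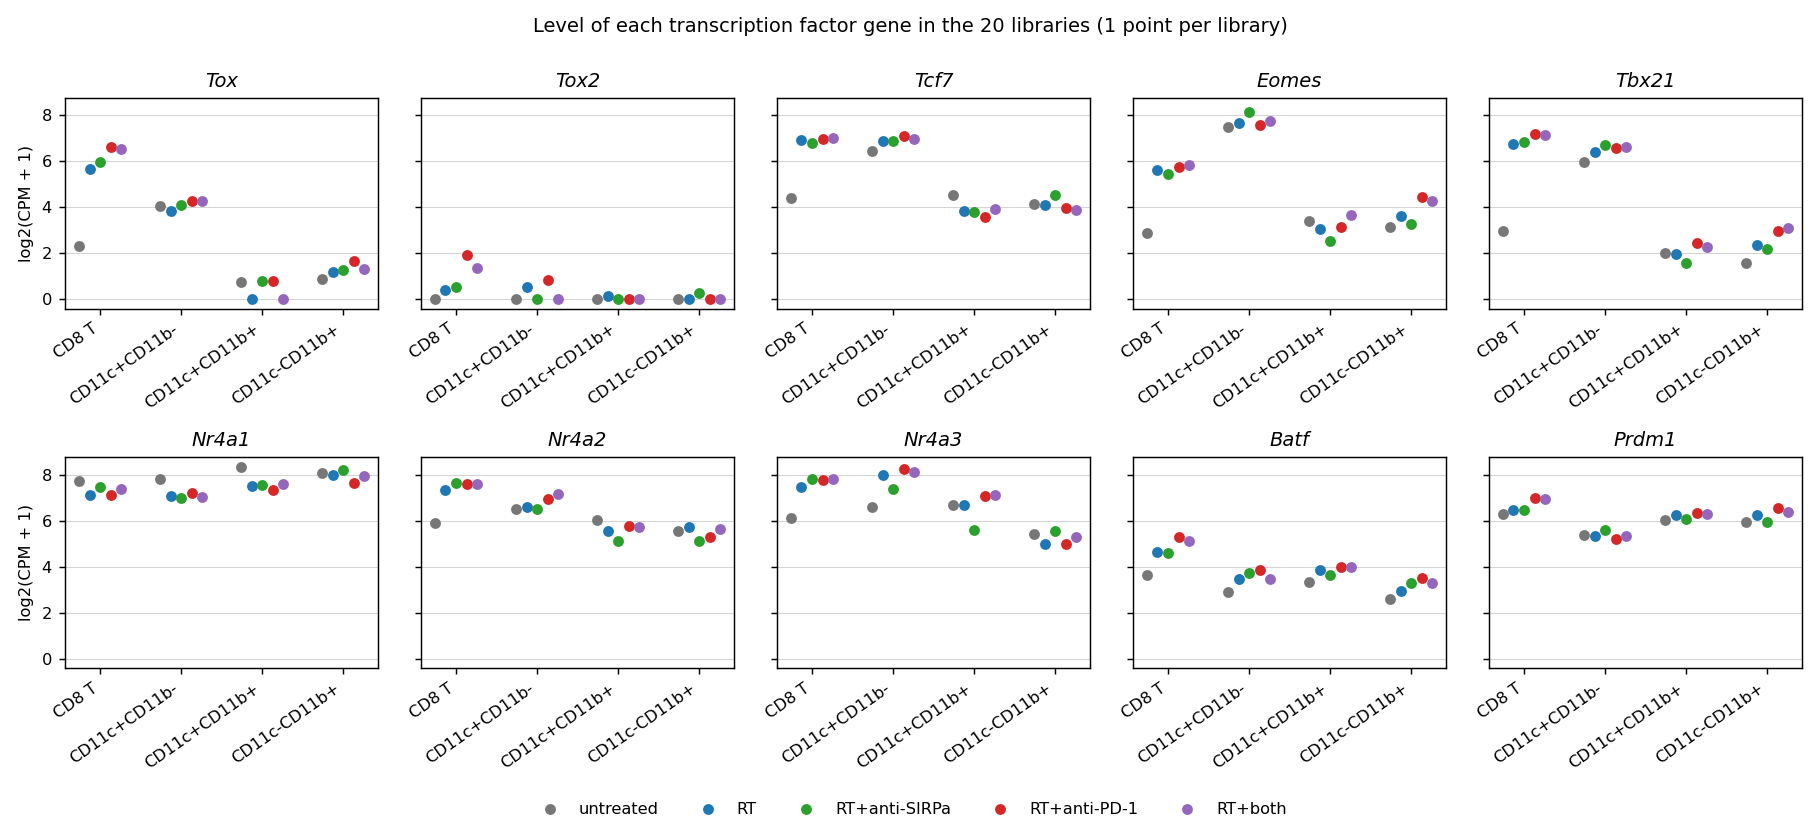
Each panel shows 1 gene, with log2(CPM + 1) on the vertical axis and the 4 sorted populations along the horizontal axis, 1 point per library coloured by treatment. The grey untreated point of CD8 T lies below the other CD8 T points for every gene but Nr4a1, and Eomes is highest in CD11c+CD11b-.

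Levels were also set on a scale that corrects for transcript length (TPM), summed over all annotated transcripts of a gene. Nr4a2 had the highest mean of the 10 genes in the 4 irradiated CD8 T libraries, at 205 ± 25.8 TPM (SD, n = 4). Nr4a1 came next at 143 ± 27.5 TPM (SD, n = 4), and their ranges overlapped. The Nr4a2 sum includes Nr4a2-204, a 182-base transcript with no annotated protein, at 129 to 202 counts in these libraries. Short transcripts weigh more per count. Nr4a2-201, its protein-coding transcript with the most counts, has 3568 bases and 1472 to 2425 counts in these libraries. The first place of Nr4a2, here and in CD11c+CD11b- below, therefore holds only for the sum over all annotated transcripts. Its place by protein-coding transcripts alone was not worked out. Tcf7, Tbx21, Nr4a3, Batf, Prdm1, Tox and Eomes followed, with means from 103 down to 30.9 TPM, and the ranges of neighbours in that order overlapped. Tox2 came last at 0.843 ± 0.763 TPM, and its range did not meet that of Eomes. In irradiated CD11c+CD11b- libraries Nr4a2, Eomes, Nr4a1, Tcf7, Nr4a3 and Tbx21 lay between 137 and 76.3 TPM on average, again with overlapping neighbours. In the other myeloid populations Nr4a1 stood first, at 140 ± 11.3 TPM in CD11c+CD11b+ and 211 ± 36.2 TPM in CD11c-CD11b+ (SD, n = 4 each), and neither range met that of the next gene, Nr4a2.

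Between sorted populations, most of these genes were higher in CD8 T libraries than in the average of the myeloid populations. The test was edgeR's quasi-likelihood test on counts with the treatment pool as a term, with Benjamini-Hochberg adjustment over all genes and 0.05 as the limit. Against the mean of the 3 myeloid populations, 9 of 10 members passed, 8 of them higher and 1 lower, while 35.5% of all genes tested passed, 19.5% higher and 15.9% lower. The median log2 fold change of the members was 1.33, and that of all genes tested 0.02. With single pools left out 6 to 10 members passed, 6 of them without the RT+anti-PD-1 or the RT+both pool, 7 without the RT pool and 10 without the untreated pool. Tox, Tcf7, Tbx21, Nr4a2, Batf and Prdm1 passed in all 5 of these fits. Without the library labelled untreated CD8 T, 9 members were higher, none was lower, and Nr4a1 did not pass, beside 50.6% of genes that passed, 25.3% higher and 25.4% lower. The picture was different against CD11c+CD11b- alone, where 3 members passed, 2 higher and 1 lower, among 4.29% of genes (1.55% higher and 2.74% lower). Without the untreated CD8 T library 5 were higher and 1 lower, among 18.6% of genes (8.35% higher and 10.3% lower).

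**Figure D2:**
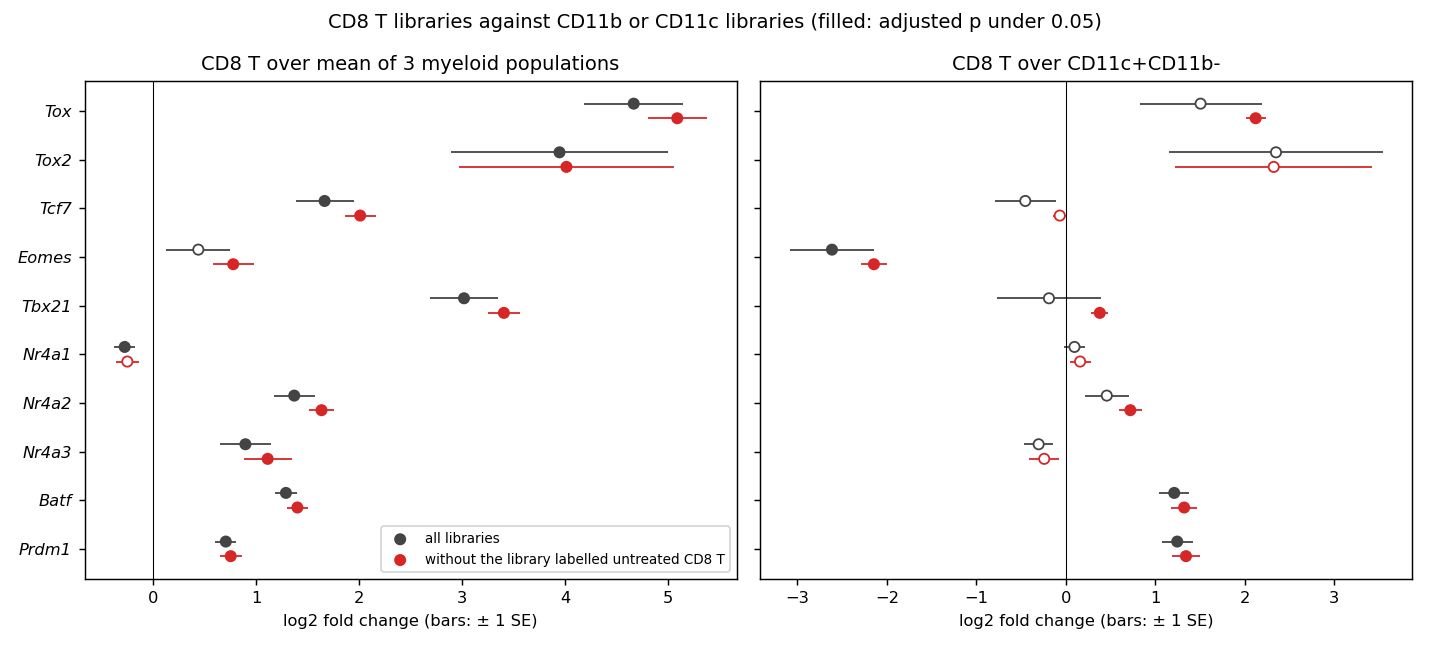
Log2 fold change of each member, with bars of ± 1 SE, for CD8 T libraries over the mean of 3 myeloid populations (left) and over CD11c+CD11b- (right). Black points use all libraries, red points leave out the library labelled untreated CD8 T, and filled points passed an adjusted p of 0.05. Tbx21 changes side in the right panel, from -0.19 to 0.38.

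Tox (GRCm38 chr4:6686353-6991557, minus strand) was the member with the widest gap between CD8 T cells and the rest. Its level was 3.97 CPM in untreated, 50.0 in RT, 61.8 in RT+anti-SIRPa, 97.8 in RT+anti-PD-1 and 90.9 in RT+both CD8 T libraries. In CD11c+CD11b- libraries it was 15.5, 13.1, 16.1, 18.3 and 18.2 CPM in the same order of treatments. The 4 irradiated CD8 T libraries lay above every myeloid library, whereas the untreated CD8 T library lay below all CD11c+CD11b- libraries. In CD11c+CD11b+ libraries Tox reached at most 0.746 CPM and had 0 counts in the RT and RT+both libraries, and in CD11c-CD11b+ libraries it was 0.840 to 2.16 CPM. The log2 fold change of CD8 T over the myeloid mean was 4.66 ± 0.48 (SE, edgeR adjusted p = 1.03e-05), and 5.09 ± 0.29 without the untreated CD8 T library. Against CD11c+CD11b- the log2 fold change was 1.50 ± 0.68 (edgeR adjusted p = 0.31), and without the untreated CD8 T library it was 2.12 ± 0.11 (edgeR adjusted p = 9.69e-05).

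Tox2 (chr2:163203125-163324170, plus strand), a paralogue of Tox linked to the same T cell states, was close to the limit of detection. It had 0 counts in the untreated CD8 T library, 7 in RT, 10 in RT+anti-SIRPa, 72 in RT+anti-PD-1 and 44 in RT+both. Among the 15 myeloid libraries only 4 had any count, and the highest was 18, in CD11c+CD11b- after RT+anti-PD-1. The anti-PD-1 CD8 T libraries thus held most of the Tox2 counts of the series, and at these counts no fold change between populations is given, although CD8 T passed as higher than the myeloid mean (edgeR adjusted p = 0.013, and 0.0059 without the untreated CD8 T library).

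Tcf7 (chr11:52252371-52283014, minus strand) was at overlapping levels in irradiated CD8 T and CD11c+CD11b- libraries. CD8 T libraries had 19.9 CPM in untreated, 119 in RT, 108 in RT+anti-SIRPa, 124 in RT+anti-PD-1 and 127 in RT+both. CD11c+CD11b- libraries had 86.4, 116, 115, 137 and 123 CPM in that order, and the other myeloid libraries 10.8 to 22.3 CPM. Apart from the untreated library, the levels of the first 2 populations overlapped and both lay above all libraries of the remaining populations. The log2 fold change of CD8 T over CD11c+CD11b- was -0.45 ± 0.34 (edgeR adjusted p = 0.56), and -0.07 ± 0.07 without the untreated CD8 T library (edgeR adjusted p = 0.60). Over the myeloid mean it was 1.67 ± 0.28 (edgeR adjusted p = 0.00045), and 2.01 ± 0.15 without that library.

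The T-box pair split the populations in different ways. Eomes (chr9:118478212-118486132, plus strand) was at 6.42, 48.2, 42.8, 53.2 and 56.4 CPM in the untreated, RT, RT+anti-SIRPa, RT+anti-PD-1 and RT+both CD8 T libraries, against 177, 197, 277, 189 and 211 CPM in CD11c+CD11b-. Every CD11c+CD11b- library exceeded every CD8 T library, and the difference was 1 of the 3 that passed between these populations, at a log2 fold change of -2.61 ± 0.47 (edgeR adjusted p = 0.034). Without the untreated CD8 T library it was -2.14 ± 0.15 (edgeR adjusted p = 0.00023). Ncr1, which encodes the NK receptor NKp46, was at 1.14 to 1.99 CPM in CD8 T and at 205 to 301 CPM in CD11c+CD11b- libraries. Over the myeloid mean the log2 fold change of Eomes was 0.44 ± 0.31 (edgeR adjusted p = 0.29), and 0.78 ± 0.20 without that library (edgeR adjusted p = 0.0043). This value averages log levels, so the low CD11c+CD11b+ and CD11c-CD11b+ libraries, at 4.72 to 20.6 CPM, pull it up although the mean CPM was 41.4 in CD8 T and 77.2 in myeloid libraries.

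Tbx21 (chr11:97098071-97115331, minus strand) was shared by CD8 T and CD11c+CD11b- libraries at similar levels. It was at 6.68, 105, 113, 143 and 138 CPM in CD8 T libraries in the order untreated, RT, RT+anti-SIRPa, RT+anti-PD-1 and RT+both, against 60.7, 82.6, 103, 92.4 and 95.9 CPM in CD11c+CD11b-. Irradiated CD8 T libraries were higher than every CD11c+CD11b- library, and the untreated one was lower than all. The log2 fold change was -0.19 ± 0.58 with all libraries (edgeR adjusted p = 0.92) and 0.38 ± 0.09 without the untreated CD8 T library (edgeR adjusted p = 0.033). The other myeloid libraries held 1.94 to 7.39 CPM, and CD8 T exceeded the myeloid mean by 3.02 ± 0.33 on the log2 scale (edgeR adjusted p = 1.73e-05), and by 3.40 ± 0.15 without the untreated CD8 T library.

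The NR4A genes Nr4a1, Nr4a2 and Nr4a3 were expressed in all 4 populations. Because they are known as cyclic AMP and calcium responsive genes, the 250 bases before their start sites are shown (RefSeq, GRCm38.p6). Capitals mark the motif TGACG, the core of the cyclic AMP response element, or its reverse complement CGTCA. The windows are chr15:101266596-101266845 on the plus strand for Nr4a1, chr2:57124004-57124253 on the minus strand for Nr4a2 and chr4:48045055-48045304 on the plus strand for Nr4a3. The Nr4a1 window lies inside the gene as annotated for counting, which starts at 101254269. The Nr4a3 window runs up to the RefSeq start, and the annotation used for counting puts the gene start at 48045153, inside it.
Nr4a1: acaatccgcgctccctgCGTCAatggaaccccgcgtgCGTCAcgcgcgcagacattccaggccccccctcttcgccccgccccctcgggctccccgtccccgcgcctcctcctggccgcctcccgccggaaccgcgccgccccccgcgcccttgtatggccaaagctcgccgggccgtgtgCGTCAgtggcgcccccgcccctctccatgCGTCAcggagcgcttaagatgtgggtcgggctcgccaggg
Nr4a2: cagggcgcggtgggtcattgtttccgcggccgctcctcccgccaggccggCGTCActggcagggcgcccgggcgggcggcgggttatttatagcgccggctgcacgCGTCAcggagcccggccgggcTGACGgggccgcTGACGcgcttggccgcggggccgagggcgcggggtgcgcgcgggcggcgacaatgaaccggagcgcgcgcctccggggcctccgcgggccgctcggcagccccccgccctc
Nr4a3: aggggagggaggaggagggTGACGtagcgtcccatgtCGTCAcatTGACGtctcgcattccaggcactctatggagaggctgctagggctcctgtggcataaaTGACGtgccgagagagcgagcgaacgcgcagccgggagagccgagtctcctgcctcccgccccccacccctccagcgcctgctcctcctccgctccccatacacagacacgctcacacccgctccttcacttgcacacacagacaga
Each of these windows held 4 matches on either strand, a count reached in 0.137% of 32851 RefSeq mouse promoter windows of the same length, while 17.8% held at least 1. The whole element TGACGTCA, found in 1.55% of windows, was in none of the 14 windows of the 9 members with an entry. Single TGACG matches occurred before Batf, Prdm1 and 1 of 5 Tox2 starts, and none before Tcf7, Eomes or Tbx21. The AP-1 motif TGANTCA, found in 6.75% of windows, was present before Prdm1. Every TGACGTCA also holds a TGACG, and these are letter matches, not binding data.

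Nr4a1 (chr15:101254269-101274795, plus strand) was the 1 member that passed as lower in CD8 T libraries than in the myeloid mean. Its level was 208, 137, 177, 137 and 164 CPM in CD8 T libraries in the order untreated, RT, RT+anti-SIRPa, RT+anti-PD-1 and RT+both. The lowest, median and highest of the 15 myeloid libraries were 125, 194 and 322 CPM, so the groups overlapped. The log2 fold change over the myeloid mean was -0.27 ± 0.10 (edgeR adjusted p = 0.047), and -0.25 ± 0.11 without the untreated CD8 T library (edgeR adjusted p = 0.071). The call was also lost without the RT, the RT+anti-PD-1 or the RT+both pool, without the pool term and without the filter on low counts.

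Nr4a2 (chr2:57106830-57124003, minus strand) followed the T cell side more closely. CD8 T libraries had 59.4, 160, 198, 192 and 193 CPM in the order untreated, RT, RT+anti-SIRPa, RT+anti-PD-1 and RT+both, and CD11c+CD11b- libraries 88.9, 95.0, 89.3, 123 and 140 CPM. The remaining myeloid libraries lay at 33.1 to 63.4 CPM. All irradiated CD8 T libraries were above all myeloid libraries. Over the myeloid mean the log2 fold change was 1.37 ± 0.20 (edgeR adjusted p = 0.00016), and 1.64 ± 0.12 without the untreated CD8 T library. Against CD11c+CD11b- it was 0.46 ± 0.25 (edgeR adjusted p = 0.40), and it passed at 0.72 ± 0.13 without the untreated CD8 T library (edgeR adjusted p = 0.010).

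Nr4a3 (chr4:48045153-48086447, plus strand) was highest in individual CD11c+CD11b- libraries. It was at 67.9, 177, 225, 219 and 220 CPM in CD8 T libraries in the order untreated, RT, RT+anti-SIRPa, RT+anti-PD-1 and RT+both, against 95.6, 251, 165, 298 and 276 CPM in CD11c+CD11b-. The ranges overlapped, and the log2 fold change was -0.30 ± 0.16 (edgeR adjusted p = 0.39), and -0.24 ± 0.17 without the untreated CD8 T library (edgeR adjusted p = 0.40). Over the myeloid mean it was 0.90 ± 0.25 (edgeR adjusted p = 0.012), and 1.11 ± 0.23 without that library. CD11c+CD11b+ libraries had 101, 99.95, 47.2, 133 and 137 CPM, and CD11c-CD11b+ libraries 30.6 to 46.2 CPM.

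In both CD11c+ populations the Nr4a3 level moved with markers of dendritic cells, those of mature ones among them. Ccl22, a chemokine of mature dendritic cells, was at 52.6, 452, 178, 423 and 355 CPM in the CD11c+CD11b- libraries in the order of treatments above, and at 118, 153, 46.2, 165 and 168 CPM in CD11c+CD11b+. In CD11c+CD11b- the untreated library was lowest and the RT+anti-SIRPa library next lowest for both genes. Ccl22 was highest there in RT and Nr4a3 in RT+anti-PD-1. In CD11c+CD11b+ the RT+anti-SIRPa library was lowest for both. The 4 mature dendritic cell markers summed to 367 to 1525 CPM in CD11c+CD11b- and to 243 to 538 CPM in CD11c+CD11b+. Markers of conventional type 1 dendritic cells (cDC1) were low in the same libraries. They summed to 142.5 CPM in untreated and 484 CPM in RT+anti-SIRPa CD11c+CD11b- libraries, against 1217 to 1554 CPM in the others. In CD11c+CD11b+ they were lowest in RT+anti-SIRPa, at 347 CPM, against 361 to 438 CPM. Plasmacytoid dendritic cell markers had the same low libraries. The part of all these markers in the Nr4a3 levels was not tested. CD8 T libraries reached the same Nr4a3 levels with Ccl22 at 5.14 to 10.8 CPM.

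**Figure D3:**
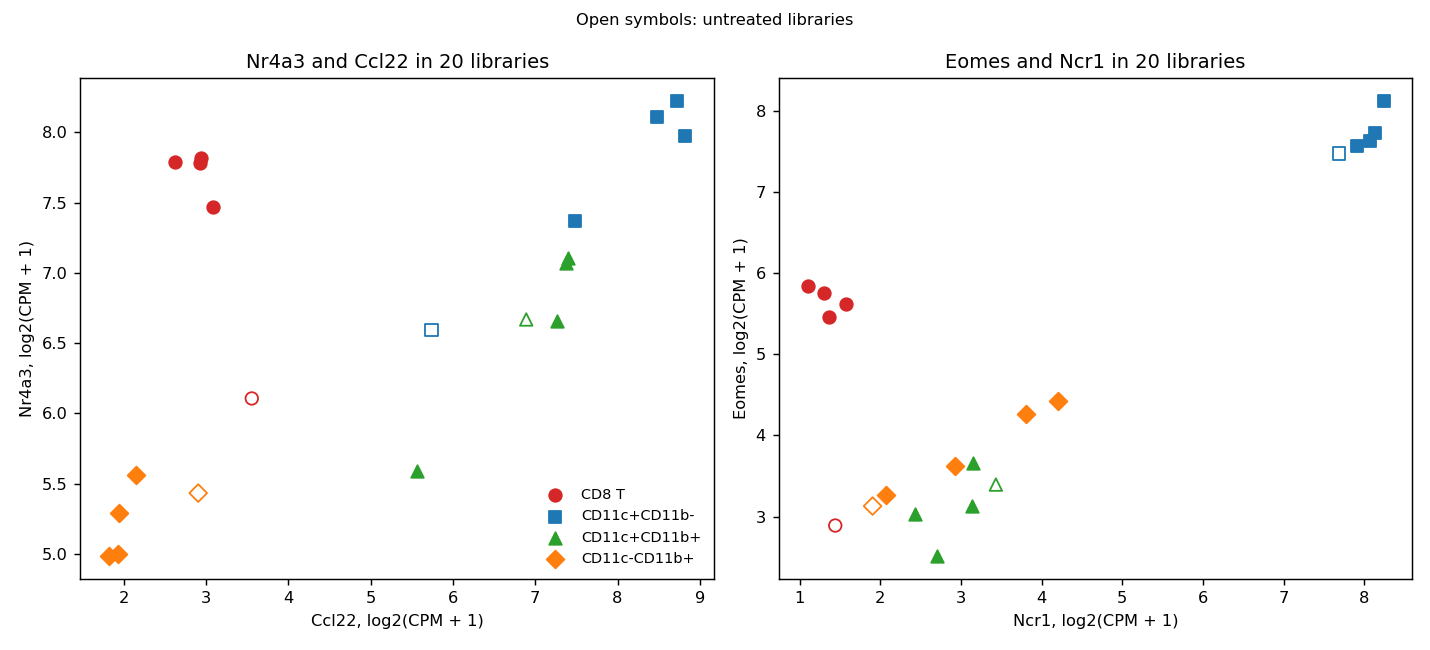
Nr4a3 against Ccl22 (left) and Eomes against Ncr1 (right) in the 20 libraries, both axes log2(CPM + 1), with symbols by population and open symbols for untreated libraries. The irradiated CD8 T libraries stand apart on the left at high Nr4a3 with Ccl22 at 5.14 to 7.52 CPM. On the right they lie at 42.8 to 56.4 CPM of Eomes, below all CD11c+CD11b- libraries, with Ncr1 at 1.14 to 1.99 CPM.

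Batf (chr12:85686669-85709087, plus strand) and Prdm1 (chr10:44437177-44528501, minus strand) were the members higher in CD8 T than in CD11c+CD11b- libraries with every library included. Batf was at 11.4, 23.8, 22.9, 38.5 and 33.4 CPM in CD8 T libraries in the order untreated, RT, RT+anti-SIRPa, RT+anti-PD-1 and RT+both, against 6.47 to 13.3 CPM in CD11c+CD11b-. All 4 irradiated CD8 T libraries lay above that range and the untreated one within it. The log2 fold change was 1.21 ± 0.17 (edgeR adjusted p = 0.016), and 1.32 ± 0.15 without the untreated library.

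Prdm1 was at 76.5, 88.3, 86.6, 126 and 121 CPM in CD8 T libraries in the same order, against 35.5 to 47.0 CPM in CD11c+CD11b-. These groups did not overlap, as was the case for 6.96% of genes tested, and the log2 fold change was 1.24 ± 0.17 (edgeR adjusted p = 0.015), and 1.34 ± 0.16 without the untreated CD8 T library. CD11c+CD11b+ libraries had 64.9 to 79.8 CPM and CD11c-CD11b+ libraries 59.4 to 93.9 CPM. Over the myeloid mean the log2 fold change was 1.29 ± 0.11 for Batf (edgeR adjusted p = 1.52e-06) and 0.71 ± 0.10 for Prdm1 (edgeR adjusted p = 0.00013), and without that library 1.40 ± 0.10 and 0.76 ± 0.11. The CD8 T against CD11c+CD11b- calls depended on which pool was left out. Without the untreated pool 6 members passed, Eomes, Batf and Prdm1 among them. Without the RT, the RT+anti-SIRPa or the RT+both pool 0 members passed, and without the RT+anti-PD-1 pool only Prdm1 did. Over these 5 fits the log2 fold change ran from -2.83 to -2.14 for Eomes, from 1.10 to 1.32 for Batf and from 1.10 to 1.34 for Prdm1.

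Within the myeloid libraries the set divided the CD11c+CD11b- population from its CD11b+ neighbour. Of 9 members tested in CD11c+CD11b- over CD11c+CD11b+, 6 were higher and 2 lower, beside 45.4% of all genes (23.1% higher and 22.3% lower), and Tox2 was too low to test. The median log2 fold change of the 9 was 1.11, against 0.00 over all genes. Tox, Tcf7, Eomes and Tbx21 were higher by 5.37 ± 0.65, 3.002 ± 0.24, 4.70 ± 0.27 and 4.77 ± 0.21 on the log2 scale, and none of these groups overlapped, as held for 28.1% of genes (edgeR adjusted p = 0.00061, 9.17e-05, 2.23e-05 and 9.13e-06). Over the same contrast all 6 NK cell markers passed as higher, with a median of 5.09, and 11 of 12 CD8 T cell markers, with a median of 3.29. Nr4a2 and Nr4a3 were higher by 1.11 ± 0.15 and 1.04 ± 0.25 (edgeR adjusted p = 0.00088 and 0.012). Prdm1 fell by 0.86 with an SE of 0.10, and Nr4a1 fell by 0.46 with an SE of 0.08 (edgeR adjusted p = 0.00058 and 0.0030).

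CD11c+CD11b+ and CD11c-CD11b+ libraries were more alike in these genes. Here 3 of 9 members passed, 2 higher and 1 lower, among 24.8% of genes (12% higher and 12.9% lower). Nr4a3 was higher in CD11c+CD11b+ by 1.39 ± 0.26 (edgeR adjusted p = 0.0058) and Batf by 0.69 ± 0.12 (edgeR adjusted p = 0.0037), while Eomes was lower by a log2 fold change of -0.67 ± 0.21 (edgeR adjusted p = 0.044). The mature dendritic cell marker Ccl22 differed in the same contrast by 5.07 ± 0.36. Eomes in CD11c-CD11b+ was 7.76, 11.4, 8.60, 20.6 and 18.2 CPM in untreated, RT, RT+anti-SIRPa, RT+anti-PD-1 and RT+both libraries, and Ncr1 was 2.75, 6.62, 3.19, 17.4 and 13.0 CPM. Both genes put these 5 libraries in the same order, but the 6 NK cell markers together did not, with sums of 41.1, 42.1, 38.4, 86.6 and 64.3 CPM. Klra4, another of the 6, was at 31.6 CPM in the untreated library, above its 16.5 to 27.3 CPM in the irradiated ones. It alone of the 6 was lower on average in irradiated libraries. The log2 fold change of irradiated over untreated was 1.86 for Ncr1, 1.89 for Klrb1c, 2.22 for Klra8, 2.15 for Klra7 and 1.71 for Klri2.

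Setting each member against Cd3e and Cd8a, the alpha chain of the CD8 co-receptor, gives a level per unit of T cell transcript. In the 4 irradiated CD8 T libraries Tox was 12.6 to 17.2% of Cd3e, Tcf7 21.6 to 30.0%, Eomes 9.25 to 12.1% and Tbx21 24.9 to 29.8%. Prdm1, at 21.9 to 22.8% of Cd3e, and Batf, at 6.00 to 6.70%, varied least, by a factor of 1.04 and 1.12 between the highest and the lowest of the 4. Nr4a1, Nr4a2 and Nr4a3 varied by factors of 1.95, 1.56 and 1.55, with the RT+anti-SIRPa library highest and the RT+anti-PD-1 library lowest for each. CPM ratios between 2 genes depend on their lengths, so only changes of a ratio between libraries are read.

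The library labelled untreated CD8 T separated the members when read this way. Its Tox was 13.2% of Cd3e, inside the irradiated range, and its Tbx21 was 22.3%, just below it. Its ratios of Eomes and Tcf7 to Cd3e were 1.98 and 2.55 times the mean of the irradiated libraries. Those of Nr4a2, Nr4a3 and Batf were 4.88, 4.94 and 6.08 times that mean, and those of Prdm1 and Nr4a1 were 11.4 and 20.4 times. With Cd8a as the divisor Tox and Tbx21 stood at 1.09 and 1.07 times, and Prdm1 and Nr4a1 at 14.7 and 26.2 times. Prdm1 and Nr4a1 are also the members whose CPM in CD11b+ myeloid libraries overlapped that of the irradiated CD8 T libraries.

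**Figure D4:**
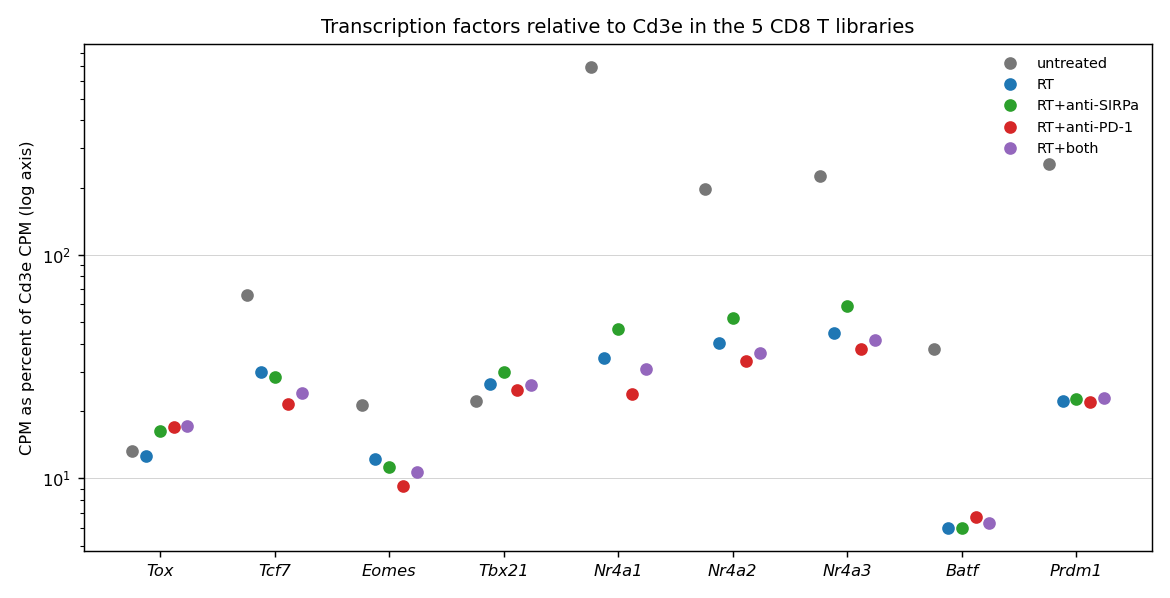
CPM of each member as percent of Cd3e CPM in the 5 CD8 T libraries, on a log axis, coloured by treatment, with Tox2 left out for its low counts. The grey untreated point lies among the others for Tox, and at 255% of Cd3e for Prdm1 against 21.9 to 22.8% in the irradiated libraries.

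In the myeloid libraries most of the same ratios were far from those of T cells. In CD11c+CD11b- libraries Eomes was 2313 to 4889% of Cd3e, and Tcf7 961 to 2532%. Even Tox, the member nearest to the T cell ratio there, was 135 to 428% of Cd3e, against 12.6 to 17.2% in irradiated CD8 T libraries. In CD11c-CD11b+ libraries the median ratio of Tox to Cd3e was 1.19 times the irradiated CD8 T median and that of Tbx21 2.93 times, whereas Eomes stood at 19.4 times and Nr4a1 at 104 times. Tox in CD11c-CD11b+, at 14.2 to 36.6% of Cd3e, overlapped the CD8 T range. So did Tox in CD11c+CD11b+, at 0 to 190% of Cd3e, where both genes were near the floor.

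Irradiated pools were compared with the single untreated pool in each population, and in CD8 T libraries the comparison rests on the library that stood apart. There 7 of 10 members passed, all higher in irradiated libraries, as were 13.4% of genes. The median log2 fold change of the 10 was 2.09, also with Tox2 set at its bound, against 0.06 over all genes. Tox rose by 4.22 ± 0.51, Tbx21 by 4.20 ± 0.28, Eomes by 2.94 ± 0.22 and Tcf7 by 2.56 ± 0.17 on the log2 scale, with edgeR adjusted p-values of 0.0019, 0.00069, 0.00075 and 0.00069. In the same contrast Cd3e rose by 3.95 ± 0.34 and Cd8a by 4.32 ± 0.40, and all 10 macrophage markers fell, with a median of -3.15. Nr4a2, Nr4a3 and Batf rose by 1.62 ± 0.18, 1.61 ± 0.19 and 1.36 ± 0.35 (edgeR adjusted p = 0.0015, 0.0018 and 0.030). Nr4a1 and Prdm1 did not pass, at -0.46 ± 0.17 and 0.44 ± 0.26. Tox2, at 0 counts in the untreated library, was at least 12.3-fold higher against a floor of 3 counts and did not pass. The part of treatment and that of the marker shift in these values cannot be told apart with 1 untreated library.

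In the myeloid populations no member passed between irradiated and untreated pools with edgeR, where 0.0205% of genes passed in CD11c+CD11b-, 0.375% in CD11c+CD11b+ and 0.00503% in CD11c-CD11b+. At an unadjusted p under 0.05 there were 5 of 10, 3 of 9 and 2 of 9 members in these populations, beside 23.6%, 16.6% and 19.7% of all genes tested, and DESeq2 called 3, 2 and 0 members. Nr4a1 was the member nearest to the limit. In CD11c+CD11b- it was at 125 to 146 CPM in the 4 irradiated libraries, against 222 CPM in the untreated one (log2 fold change -0.80 ± 0.14, edgeR adjusted p = 0.078). In CD11c+CD11b+ it was at 161 to 194 CPM in the irradiated libraries, against 322 CPM in the untreated one (-0.85 ± 0.12, edgeR adjusted p = 0.053). Every irradiated library was below the untreated one, which held for 62.7% and 56.7% of genes in either direction. DESeq2 called Nr4a1 in both populations. In CD11c+CD11b- other markers stood apart in the untreated library as well. The 12 immediate early genes summed to 4715 to 5497 CPM in the irradiated libraries, against 7859 CPM in the untreated one, and Egr1, among them, was at 207 to 304 CPM, against 1018 CPM. The cDC1 markers summed to 484 to 1554 CPM in the irradiated libraries, against 142.5 CPM in the untreated one, and the plasmacytoid dendritic cell markers to 135 to 645 CPM, against 38.6 CPM. Their part in the Nr4a1 levels was not tested. In CD11c+CD11b+ the immediate early genes summed to 9750 to 10930 CPM in the irradiated libraries, around the 10590 CPM of the untreated one. Fos, Dusp1 and Zfp36 were higher there on average in irradiated libraries and the other genes of that list lower. Egr1 was at a mean of 372 CPM, against 846 CPM in the untreated library. The macrophage markers in CD11c+CD11b+ summed to 11020 to 13830 CPM in the irradiated libraries, against 7222 CPM in the untreated one. The part of these genes in the Nr4a1 levels was not tested. In CD11c-CD11b+ the irradiated libraries, at 196 to 291 CPM of Nr4a1, surrounded the untreated one at 270 CPM. Nr4a3 in CD11c+CD11b- was 165 to 298 CPM in irradiated libraries, against 95.6 CPM in the untreated one (1.30 ± 0.36, edgeR adjusted p = 0.10), beside 666 to 1525 and 367 CPM of summed mature dendritic cell markers.

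Anti-PD-1 was tested within irradiated pools, as the 2 libraries with it against the 2 without it, with anti-SIRPa as a further term and 1 residual degree of freedom. In CD8 T libraries 5 of 10 members passed, all higher with anti-PD-1, as were 2.69% of genes, with a median of 0.32 against 0.01 over all genes. Tox was at 97.8 and 90.9 CPM with anti-PD-1, against 50.0 and 61.8 CPM without it (log2 fold change 0.77 ± 0.12, edgeR adjusted p = 0.012). Prdm1 was at 126 and 121 CPM with anti-PD-1, against 88.3 and 86.6 CPM without it (0.50 ± 0.08, edgeR adjusted p = 0.012). Batf was at 38.5 and 33.4 CPM with anti-PD-1, against 23.8 and 22.9 CPM without it (0.62 ± 0.12, edgeR adjusted p = 0.026). None of these groups overlapped, as held for 50.8% of genes in this design of 2 against 2.

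Tbx21 was higher by a smaller margin, at 143 and 138 CPM with anti-PD-1, against 105 and 113 CPM without it (0.37 ± 0.08, edgeR adjusted p = 0.042). Tox2 had 72 and 44 counts with anti-PD-1, against 7 and 10 counts without it (2.52 ± 0.55, edgeR adjusted p = 0.037). Tcf7, Eomes, Nr4a1, Nr4a2 and Nr4a3 did not pass, with log2 fold changes from -0.05 to 0.27. The T cell markers moved as well. Cd3e was higher by 0.51 ± 0.08 and Cd8a by 0.61 ± 0.07 (edgeR adjusted p = 0.011 and 0.0053), all 12 CD8 T cell markers were higher, and 8 of 10 macrophage markers were lower. Per Cd3e, Prdm1 was 0.985 and 1.01 times and Batf 1.12 and 1.05 times the level without anti-PD-1, in the pairs without and with anti-SIRPa. Tox per Cd3e was 1.35 and 1.06 times, Tox2 6.19 and 2.72 times, Tbx21 0.945 and 0.875 times, and Tcf7 0.719 and 0.849 times. Per Cd8a, Tox was 1.31 and 0.947 times and Batf 1.09 and 0.939 times, so both were lower in the pair with anti-SIRPa. Per Cd8a, Prdm1 was 0.958 and 0.898 times, Tbx21 0.919 and 0.782 times, and Tox2 6.02 and 2.43 times.

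The calls of this comparison rested on the fitted model. No member passed when the anti-SIRPa term was dropped or when low counts were not filtered, and 1 passed, Prdm1, in a joint fit of the 16 irradiated libraries. For Tox the adjusted p ran from 0.00028 to 0.53 over 5 alternatives, of which 2 passed.

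**Figure D5:**
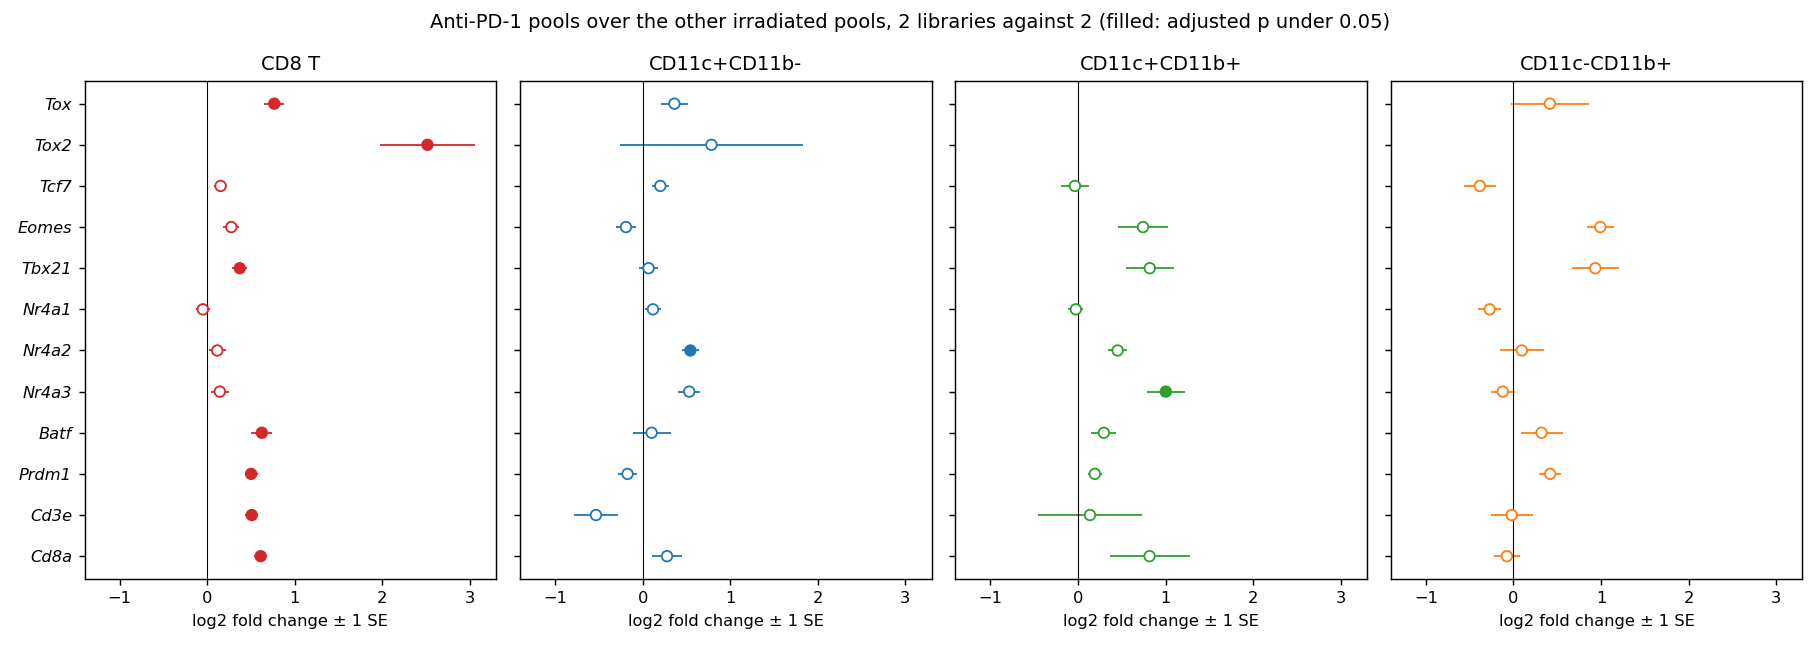
Log2 fold change with bars of ± 1 SE for anti-PD-1 pools over the other irradiated pools in the 4 populations, for the members and for Cd3e and Cd8a, filled where the adjusted p was under 0.05. Points with an SE of 1.2 or more or not tested are left out. In CD8 T, Tox, Tox2, Tbx21, Batf and Prdm1 pass together with Cd3e and Cd8a.

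In the myeloid populations 1 member was called with anti-PD-1 in each CD11c+ population. Nr4a2 in CD11c+CD11b- was at 123 and 140 CPM with anti-PD-1, against 95.0 and 89.3 CPM without it (0.55 ± 0.10, edgeR adjusted p = 0.045), the single member called, where 1.22% of genes were higher. Nr4a3 in CD11c+CD11b+ was at 133 and 137 CPM with anti-PD-1, against 99.95 and 47.2 CPM without it (1.00 ± 0.22, edgeR adjusted p = 0.040), again the single call, where 1.92% of genes were higher. Nr4a1 did not pass in either (edgeR adjusted p = 0.45 and 0.88). Neither call was made when the other antibody term was dropped or with no filter on low counts. DESeq2 called Nr4a2 and Nr4a3 in CD11c+CD11b-, and no member in CD11c+CD11b+. Cell type markers moved in the same CD11c+CD11b- contrast. There 3 of 10 macrophage markers were lower, with a list median of -0.65, and 1 of 5 plasmacytoid dendritic cell markers and 1 of 4 mature dendritic cell markers were higher, with medians of 0.94 and 0.55. The 5 cDC1 markers (conventional type 1 dendritic cells) had a median of 0.81 and 0 passed. The part of these markers in the Nr4a2 level was not tested. Ccl22 in CD11c+CD11b+ was at 165 and 168 CPM with anti-PD-1, against 153 and 46.2 CPM without it. In CD11c-CD11b+ no member and 0% of genes passed with edgeR, 3 of 9 members had an unadjusted p under 0.05, as did 15.1% of genes, and DESeq2 called 1, Eomes, at 20.6 and 18.2 CPM with anti-PD-1 and 11.4 and 8.60 CPM without it. In that CD11c-CD11b+ contrast the log2 fold change was 0.99 for Eomes. For the NK cell markers it was 1.72 for Ncr1, 1.76 for Klrb1c, 2.41 for Klra8, 1.63 for Klra7 and 1.92 for Klri2, and -0.21 for Klra4. The part of these markers in the Eomes level was not tested. Whether the effect of anti-PD-1 differs between populations was not tested.

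For anti-SIRPa, tested the same way, no member passed in any population with edgeR or DESeq2. The share of genes that passed was 0.101% in CD8 T, 0.00523% in CD11c+CD11b-, 0.156% in CD11c+CD11b+ and 0% in CD11c-CD11b+. At an unadjusted p under 0.05 there were 1 of 10, 3 of 10, 2 of 9 and 1 of 9 members in that order, beside 9.77%, 12.3%, 11.4% and 4.36% of all genes tested. In CD8 T the member was Nr4a1, at 177 and 164 CPM with anti-SIRPa, against 137 and 137 CPM without it (0.30 ± 0.08, edgeR adjusted p = 0.31). Nr4a3 was among them in each myeloid population, at log2 fold changes of -0.36 ± 0.12, -0.55 ± 0.21 and 0.44 ± 0.14 in CD11c+CD11b-, CD11c+CD11b+ and CD11c-CD11b+. The level with anti-SIRPa was 0.656 times that without it in the CD11c+CD11b- pair without anti-PD-1 and 0.926 times in the pair with it. In CD11c+CD11b+ the pairs went opposite ways, at 0.472 and 1.03 times, and in CD11c-CD11b+ they stood at 1.50 and 1.24 times.

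Other genes of the same programmes are given from lists of textbook members. Of 26 further T cell transcription factors, 25 were tested in CD8 T over the myeloid mean, and 14 were higher and 5 lower, with a median of 0.45. Of all genes 19.5% were higher and 15.9% lower. Without the untreated CD8 T library 13 of 26 were higher and 8 lower, beside 25.3% and 25.4% of all genes. The same shares apply to the other lists over the myeloid mean. Irf4, a partner of BATF, was higher by 2.87 ± 0.37 and Ikzf2, which encodes Helios, by 2.64 ± 0.25 (edgeR adjusted p = 5.26e-05 and 5.49e-06), and by 3.24 ± 0.27 and 2.96 ± 0.15 without that library. Among 8 inhibitory receptors 6 were higher and 1 lower, led by Pdcd1, the gene of PD-1, at 5.00 ± 0.35, and Ctla4 at 4.14 ± 0.33, which stood at 5.38 ± 0.18 and 4.53 ± 0.13 without that library. Of 8 effector genes 6 were higher and 1 lower, with Gzmk at 6.15 ± 0.53 and Ifng at 4.80 ± 0.39, or 6.58 ± 0.39 and 5.21 ± 0.18 without that library. Of 8 genes of naive and progenitor T cells 5 were higher and 1 lower, with a median of 0.84. Without that library 6 inhibitory receptors were higher and 2 lower, 6 effector genes were higher and none lower, and 5 naive and progenitor genes were higher and 1 lower. Against CD11c+CD11b- the counts turned on the untreated CD8 T library. With it 2 of 25 factors passed, both higher, beside 4.29% of all genes. Without it 15 of 26 passed, 5 higher and 10 lower, beside 18.6% of all genes (8.35% higher and 10.3% lower). Gzma, which encodes granzyme A, was lower in CD8 T, at a mean of 70.2 CPM against 982 CPM in CD11c+CD11b- (log2 fold change -4.42 ± 0.64, edgeR adjusted p = 0.017, and -3.91 ± 0.45 without that library).

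With anti-PD-1, 7 of 8 inhibitory receptors and 7 of 8 effector genes were higher in CD8 T libraries, with medians of 0.54 and 0.82, and none was lower, beside the 2.69% of all genes that were higher. Cd3e and Cd8a, at 0.51 and 0.61, moved by as much as that first median, and their part in these values was not tested. With no filter on low counts 0 genes in all were called in this comparison, and with the other antibody term dropped 8, against 1310 with both. Lag3 was at a mean of 320 CPM with anti-PD-1, against 193 CPM without it (0.74 ± 0.09, edgeR adjusted p = 0.0053), and Gzma at 133 CPM, against 39.9 CPM (1.76 ± 0.09, edgeR adjusted p = 0.00030). Of the 25 further factors tested, 7 were higher and 2 lower, among them Id2 at 0.63 ± 0.08 and Zeb2 at -0.49 ± 0.08. Zeb2 is also high in macrophages. Of 12 immediate early genes, which like the NR4A genes respond to stimulation and to tissue handling, 1 was higher and 4 lower, with Fos at a log2 fold change of -0.42 ± 0.10 (edgeR adjusted p = 0.048).

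The genes whose levels followed each member most closely were found by Pearson correlation of log2(CPM + 1) over the 20 libraries, which share the 4 populations and 5 pools, so that r mainly restates the population pattern. Tox was nearest to Ctla4 (r = 0.990), Ubash3a and Cd28 (both 0.989). Tbx21 was nearest to Sh2d2a, Gimap7 and Gimap4 (all 0.997), and Tcf7 to Sept6 (0.988), Cd82 (0.986) and Hook1 (0.985). Eomes was nearest to Arhgef5 (0.992), Styk1 (0.991) and Klra1 (0.990). For Nr4a2 these were Snrnp70 (0.974), St6galnac3 (0.968) and Ubr1 (0.965), and for Nr4a3 Stat4 (0.962), Mink1 (0.952) and Birc2 (0.948). Batf was nearest to Sdf4 (0.962), Armc7 (0.945) and Syt11 (0.937), Prdm1 to Kif5c (0.937), Sh3kbp1 (0.902) and Ccl3 (0.899), and Nr4a1 to Vim (0.913), Pros1 (0.900) and Hspb11 (0.894). Among the members themselves Tcf7 and Tbx21 were closest (r = 0.970). Tox2 was too low to enter.

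The transcript estimates showed 1 dominant form for most members. Tbx21 had 1 annotated transcript, and Batf-201, Tox-201 and Nr4a1-201 held 98.2, 91.6 and 89.2% of the counts of their genes over the CD8 T libraries. Nr4a3 was split between Nr4a3-201, with a protein of 627 residues, and Nr4a3-203, with one of 656 residues, whose annotated start lies 3961 bases downstream. Nr4a3-203 held 36.5 to 48.4% of Nr4a3 counts in single CD8 T libraries, against 0 to 49.8% in CD11c-CD11b+ libraries, and these ranges overlapped. Prdm1-201 and Prdm1-202 held 68.7 and 25.5% of Prdm1 counts in CD8 T libraries, close to 66.2 to 69.0% and 28.1 to 32.2% in the myeloid populations. Eomes and Nr4a2 had no such steady dominant form. Eomes-201 and Eomes-202 had 513 and 539 counts in the RT CD8 T library, against 1157 and 211 in RT+anti-PD-1. Nr4a2-201, Nr4a2-202 and Nr4a2-206 had 1472, 821 and 692 counts in the RT CD8 T library. Reads shared by transcripts were divided by the authors' estimation, which limits these shares.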

How the data were processed

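RNA was measured in 20 libraries, 1 for each of 4 sorted populations in each of 5 treatment pools. The authors deposited whole-number estimated counts for 142699 transcripts. The submitters' processing notes name FastQC 0.11.8, HISAT2, StringTie and edgeR 3.34.0, with no version for HISAT2 or StringTie. Library totals ranged from 21522743 to 35696925 counts, no pair of libraries held identical values, and the lowest chi-square per degree of freedom among 190 pairs was 13.3.

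Transcripts were summed to 55260 genes with the GENCODE M21 annotation of GRCm38, which matched 141469 of them, and the rest held at most 0.4% of any library. CPM used TMM factors, and TPM used annotated transcript lengths. Differences were tested with edgeR 4.0.16 (limma 3.58.1, R 4.3.3) by quasi-likelihood F-tests on genes past a count filter (minimum 10, total 15), with Benjamini-Hochberg adjustment across the genes tested. The SE is the absolute log2 fold change divided by the root of F. Population tests carried a pool term. Irradiation tests set 4 pools against 1, so their spread comes from the irradiated pools alone. Antibody tests used 4 irradiated libraries with a term for each antibody. DESeq2 1.42.0, other size factors, no filter, other terms and left-out pools were alternatives. The fitting steps were also run on simulated counts. These had the same dispersion for every gene and no pool or population differences beyond the changes put in, unlike the data. They do not show how often calls in the data are wrong. Tables were made with pandas 2.3.3 (Python 3.11.15) and figures with matplotlib 3.10.9. Promoter windows came from RefSeq (GRCm38.p6), where 9 of the 10 genes had an entry.

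The members and gene lists were chosen with earlier results of these data known. All 10 members are described. Of other lists, the text names up to 4 that passed, had a mean of at least 5 CPM and changed most. Cd3e and Cd8a were always given. Marker genes set beside a result (Ncr1, Klra4, Egr1, Ccl22 and Lck among them) were chosen after their values were seen. Up to 3 genes with the most similar pattern were named per member, among genes with at least 5 CPM in at least 3 libraries.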

Additional observations from a re-analysis of the deposited data

Results flagged for a closer look

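In 8 of 40 sets of 5 libraries (1 gene in 1 population), 1 library lay far from the other 4 by Dixon's test, which chance alone gives in about 1 in 20 sets. The sets share libraries, so these are not independent. The library labelled untreated CD8 T was the low one for 4 genes, Tcf7 at 19.9 CPM, Eomes at 6.42 CPM, Tbx21 at 6.68 CPM and Nr4a2 at 59.4 CPM. In that library the 12 CD8 T cell markers were at 4.38 to 7.42% of their irradiated mean. Nr4a1 was high in the untreated library of CD11c+CD11b-, at 222.0 CPM, and of CD11c+CD11b+, at 322 CPM. Tox2 was the other gene, at 0.107 CPM in CD11c+CD11b+ after RT and 0.197 CPM in CD11c-CD11b+ after RT+anti-SIRPa, which stand for 3 and 5 counts where the other 4 libraries had 0.

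Irradiated against untreated libraries moved in opposite directions between populations for 2 genes, and this difference between populations was not tested. Tcf7 was higher in all 4 irradiated libraries of CD8 T (log2 fold change 2.56) and of CD11c+CD11b- (0.43), and lower in all 4 of CD11c+CD11b+ (-0.82). Nr4a2 was higher in all 4 irradiated libraries of CD8 T (1.62) and of CD11c+CD11b- (0.26), and lower in all 4 of CD11c+CD11b+ (-0.46). In CD11c+CD11b- its lowest irradiated library was at 89.3 CPM, against 88.9 CPM in the untreated one, and the value was -0.0651 with antibody terms. All 4 irradiated libraries lay on the same side of the untreated one for 62.7% of genes in CD11c+CD11b- and 56.7% in CD11c+CD11b+. Each of these opposite movements rests on 1 untreated library per population.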

How the results depend on the processing

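Among the fold changes of single members, 952 kept direction and side of the 0.05 limit under the alternatives, 56 lost the limit, 35 gained it and 27 turned sign, most of them near 0. The 80 mean levels moved by less than their spread with other size factors. The population tests were paired by pool through the pool term, and without it 8, 3, 7 and 1 members were called for CD8 T against the myeloid mean, CD8 T against CD11c+CD11b-, CD11c+CD11b- against CD11c+CD11b+ and CD11c+CD11b+ against CD11c-CD11b+. CD8 T against the myeloid mean gave 6 to 10 over left-out pools. CD8 T against CD11c+CD11b- gave 6 members called without the library labelled untreated CD8 T and 0 to 6 when single pools were left out. CD11c+CD11b+ against CD11c-CD11b+ gave 2 to 5 over left-out pools. Irradiation in CD11c+CD11b- gave 3 with DESeq2, 2 with antibody terms, 1 with all 20 libraries in 1 fit and 0 to 2 over left-out pools. In CD11c+CD11b+ the same settings gave 2, 3, 1 and 0 to 1, and in CD11c-CD11b+ left-out pools gave 0 to 1. For anti-PD-1 in CD8 T, no filter gave 0, DESeq2 3, the other antibody term dropped 0 and a fit of 16 irradiated libraries 1. In CD11c+CD11b- these gave 0, 2, 0 and 0, in CD11c+CD11b+ the first 3 gave 0, 0 and 0, and in CD11c-CD11b+ DESeq2 gave 1 and the 16-library fit 1. The cause was not tested.

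The log2 fold changes that turned sign are the following. For CD8 T against CD11c+CD11b-, Tbx21 was 0.18 without the pool term, 0.38 without the untreated CD8 T library and -0.43 to 0.38 over left-out pools, and Nr4a1 -0.0089 to 0.16. Prdm1 between the CD11b+ populations was -0.0718 to 0.0303. For irradiation in CD11c+CD11b-, Tox was -0.0033 with other size factors, -0.0036 with DESeq2, -0.25 with antibody terms, -0.0047 in the 20-library fit and -0.0485 to 0.11 over left-out pools, and Nr4a2 -0.0651 with antibody terms. In CD11c+CD11b+, Tbx21 was -0.14 with antibody terms and -0.0625 to 0.32 over left-out pools, and Nr4a3 -0.28 and -0.11 to 0.29. In CD11c-CD11b+, Tcf7 was 0.0825 with antibody terms and -0.16 to 0.0778 over left-out pools, and Nr4a2 -0.19 to 0.0052. For anti-SIRPa, Tbx21 in CD8 T was -0.0013 with the other term dropped and -0.0022 in the 16-library fit, and in CD11c+CD11b+ Eomes was 0.0953 and 0.0331, and Tox 0.0671 in the 16-library fit. Depth limits Tox2 in every library and Tox in the CD11b+ populations, and 1 library per group limits all tests.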
